A study of Homo sapiens with 4 samples.

Results

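In HGC-27, an established line of human gastric cancer cells, 9 genes of transforming growth factor beta (TGF-β) signaling were followed in its transcriptome: the ligand genes TGFB1, TGFB2, TGFB3 and INHBA, the receptor genes TGFBR1, TGFBR2 and TGFBR3, and the target genes TGFBI and SMAD7. The genes were chosen by name, and 9 of 9 had counts among the 31907 gene names of the series. The series held 4 bulk RNA-seq libraries from cells for which the labels name no altered gene: 2 libraries of cells given PBS for 48 h, and 2 libraries of cells given recombinant human IL-17B (rIL-17B) at 200 ng/ml for 48 h. The methods describe attached cells in multiwell plates and rIL-17B dissolved in PBS. By their labels all libraries come from 1 cell line, which limits them as a model. That label was checked only against marker genes, which cannot settle whether each library holds the same cells. Nothing in the labels says whether the replicates came from separate cultures, so the p-values measure only the spread between these libraries, which may be technical.

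TGF-β is secreted bound to its own propeptide in a latent form and, once released, joins the receptors encoded by TGFBR2 and TGFBR1, a pair of serine/threonine kinases that phosphorylate SMAD2 and SMAD3. These bind SMAD4, enter the nucleus and switch target genes on or off, among them genes of the extracellular matrix and the inhibitor SMAD7, which feeds back on the receptors. Activin A, the dimer of the INHBA product, uses other receptors but the same SMAD proteins. In gastric epithelium TGF-β is known to restrain growth and, in many carcinomas, to favor a mesenchymal state.

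The 4 libraries held between 12888029 and 17555879 counts, and a count of 3, the smallest level taken as shown, corresponded to between 0.171 and 0.233 CPM (counts scaled to a library of 1000000). Levels below are CPM of the library total, and intervals are exact Poisson intervals at 95% that cover counting error only. rIL-17B replicate 1 stood apart from the other libraries. It differed at least 2-fold from rIL-17B replicate 2 in 2899 of 16361 tested genes, against 110 between the PBS libraries. The cell type of the label was checked against marker genes. Of 9 epithelial markers, KRT8 and KRT18, keratins of simple epithelia, made up most of the summed level, while CDH1 (E-cadherin) had only 7 to 11 counts per library, and TFF1 was at 0 in all 4. The epithelial sum was 799.8 and 810.0 CPM with PBS against 1854 and 1027 CPM in rIL-17B replicates 1 and 2. Not every epithelial marker was higher in replicate 1: KRT19 had 47 and 43 counts with PBS, 1 in rIL-17B replicate 1 and 58 in replicate 2, and MUC5AC was at 0 in replicate 1. The sum of 8 mesenchymal markers, all of them above 3 counts in every library, was 10566 and 10339 CPM with PBS, 849 CPM in rIL-17B replicate 1 and 8900 CPM in replicate 2. These markers did not fall alike in replicate 1. TWIST1 had 13.3 and 9.78 CPM with PBS, 11.7 CPM in rIL-17B replicate 1 and 11.7 CPM in replicate 2. VIM had 727, 706, 280 and 615 CPM in the same order. Apart from TWIST1, each marker was lower in replicate 1 than in every other library. The sum of 10 neural and glial markers was 370 and 571 CPM with PBS against 48.9 and 269.8 CPM with rIL-17B, and of these SOX10 and DCX were at 0 in all libraries while OLIG1 and OLIG2 were at 0 only in rIL-17B replicate 1. NES was the highest of them, at 220 and 345 CPM with PBS, 16.1 CPM in rIL-17B replicate 1 and 162 CPM in replicate 2. MAP2 had 57.3, 77.2, 31.5 and 44.3 CPM in the same order. The library protocol speaks of monocytes, but 9 monocyte and macrophage markers summed to 8.55 to 11.3 CPM, with PTPRC (CD45) and 5 others at 0 in rIL-17B replicate 1 and PTPRC at no more than 2.96 CPM elsewhere. CSF1R made up 8.14 CPM of the sum in rIL-17B replicate 1, and had 3.90 and 5.59 CPM with PBS and 6.15 CPM in replicate 2. These marker levels moved with several results below, and their part in them was not tested. In bulk RNA, fewer cells of a type and less RNA per cell cannot be told apart.

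The DNA before the start sites of INHBA, TGFB2 and TGFBR2 is shown because these 3 genes had the lowest levels relative to PBS in rIL-17B replicate 1. The sequences are from RefSeq on GRCh38.p14, on the strand of the gene, and come from the 250 bases before the RefSeq start nearest to the 5′ end of the GENCODE 29 gene. Bases that GENCODE 29 places in a UTR were cut off, which were 18 at the end of the INHBA window, 0 for TGFB2 and 99 at the end of the TGFBR2 window. The stretches shown are chr7:41703109-41703340 (minus strand) for INHBA, chr1:218345086-218345335 (plus strand) for TGFB2 and chr3:30606351-30606501 (plus strand) for TGFBR2. The RefSeq starts are not always the GENCODE 29 gene ends. The INHBA stretch lies inside the GENCODE 29 gene, whose 5′ end is at 41705834. The TGFB2 stretch stops short of its gene's 5′ end at 218346235. Capitals mark TATAAA on the gene's strand and CAGAC, the short box that SMAD proteins can bind, on either strand.
INHBA: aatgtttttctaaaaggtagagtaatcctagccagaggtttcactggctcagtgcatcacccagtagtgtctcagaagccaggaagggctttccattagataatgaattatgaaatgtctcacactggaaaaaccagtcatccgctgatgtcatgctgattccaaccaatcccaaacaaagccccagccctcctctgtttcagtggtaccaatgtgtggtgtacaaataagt
TGFB2: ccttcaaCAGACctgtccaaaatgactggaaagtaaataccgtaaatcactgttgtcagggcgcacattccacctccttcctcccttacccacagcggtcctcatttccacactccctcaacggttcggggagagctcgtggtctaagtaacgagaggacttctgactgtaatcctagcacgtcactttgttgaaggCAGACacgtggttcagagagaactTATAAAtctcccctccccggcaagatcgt
TGFBR2: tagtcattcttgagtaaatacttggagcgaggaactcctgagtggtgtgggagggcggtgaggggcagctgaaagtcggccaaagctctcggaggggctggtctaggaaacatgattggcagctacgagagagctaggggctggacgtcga

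Whole windows of 250 bases were found for 9 of the 9 genes, and 4 motifs were searched in them and in 35116 RefSeq windows of the same length, on both strands except for TATAAA. Parts of some windows are exon in GENCODE 29, the SMAD7 window in full. TATAAA was present 11 bases before the INHBA start, in the stretch not shown, and 29 bases before the TGFB2 start, and in no other of the 9 windows, against 6.80% of all windows. CAGAC was present in the windows of TGFB2, TGFB3, TGFBR1 and SMAD7, which is 4 of 9, against 38.0% of all windows. The palindrome GTCTAGAC, the longer SMAD element, which ends in AGAC and so shares letters with CAGAC, was in none of the 9 and in 0.182% of all windows, and the AP-1 motif TGANTCA was in none of the 9 and in 6.57% of all windows. The GC content of the whole windows was 42.8% for INHBA, 50.4% for TGFB2 and 58.4% for TGFBR2, with 1, 11 and 12 CpG, beside a median of 58.0% over all windows. A match is a description of the letters in the window and shows no binding.

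With PBS, TGFBI was the highest of the 9 genes per length. TGFBI encodes a secreted matrix protein named for its induction by TGF-β, and its level was 124 and 120 CPM per kb of exon in the PBS libraries. TGFBR2 followed with 43.5 and 43.6 CPM per kb, and TGFB1 had 36.1 and 37.9 CPM per kb. INHBA stood at 20.5 and 19.9 CPM per kb, TGFBR1 at 14.8 and 14.4, TGFB2 at 9.66 and 9.04, and SMAD7 at 6.36 and 6.24. The last 2 in the order were TGFB3, at 2.50 and 3.41 CPM per kb, and TGFBR3, at 2.89 and 2.73. These were the only neighbors in the order whose PBS libraries overlapped. The type II receptor gene stood above the type I receptor gene per length in PBS-treated cells, with means of 43.5 ± 0.103 and 14.6 ± 0.233 CPM per kb (SD, n = 2).

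**Figure D1:**
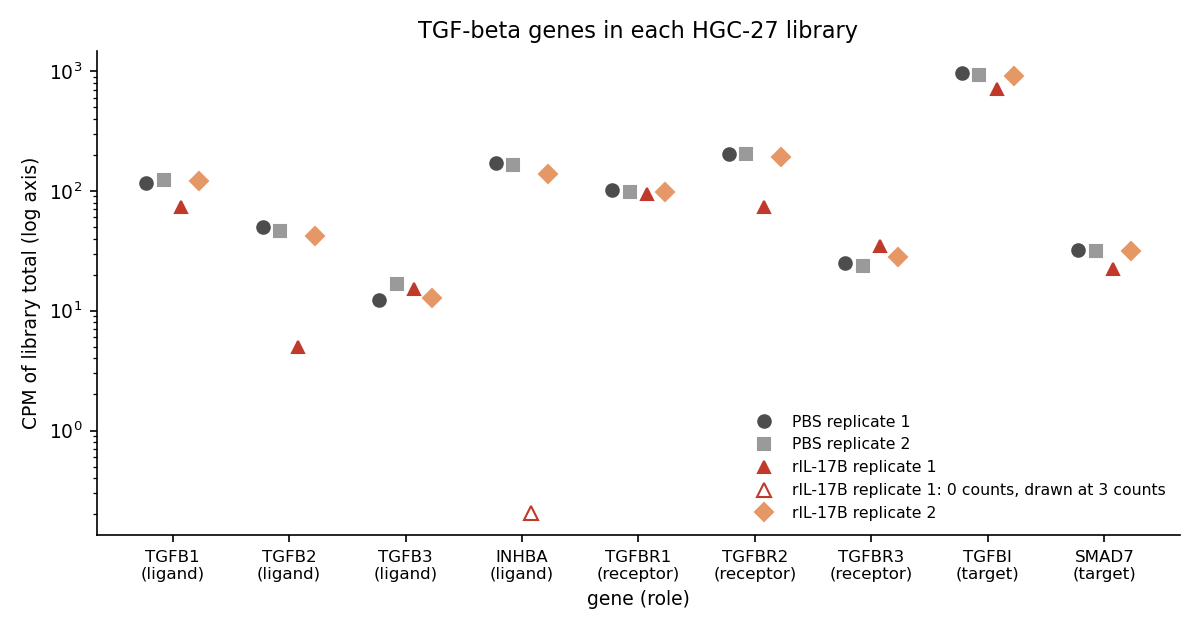
Level of each gene in each library, in CPM of the library total on a log axis, with 1 symbol per library. The open triangle is INHBA in rIL-17B replicate 1, which had 0 counts and is drawn at the level of 3 counts. INHBA, TGFB2 and TGFBR2 in rIL-17B replicate 1 lie furthest below the other 3 libraries.

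INHBA encodes the βA subunit of activin A and inhibin A (ENSG00000122641.10, chromosome 7, 41667168 to 41705834, minus strand, GENCODE 29 on GRCh38, as are all gene positions here). It had 2704 and 2133 counts with PBS, 0 counts in rIL-17B replicate 1 and 2433 counts in rIL-17B replicate 2. As levels these were 170.0 and 165.5 CPM, 0 CPM and 138.6 CPM. With 0 counts, rIL-17B replicate 1 was at least 806-fold lower than the lower PBS library, taking 3 counts in that library as its floor. rIL-17B replicate 2 stood at 82.6% of the PBS mean, with a counting interval of 133 to 144 CPM that did not reach the PBS libraries' lower interval bounds of 164 and 159 CPM. The antisense gene INHBA-AS1 overlaps INHBA without sharing exon bases and had 13 and 9 counts with PBS, 0 in rIL-17B replicate 1 and 9 in replicate 2. The mesenchymal marker sum of rIL-17B replicate 1, 849 CPM, was low in the same library, and its part in the level of INHBA was not tested.

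TGFB2 encodes the ligand TGF-β2 (chromosome 1, 218346235 to 218444619, plus strand). Its counts were 791 and 600 with PBS, 73 in rIL-17B replicate 1 and 740 in its replicate 2, that is 49.7, 46.6, 4.99 and 42.2 CPM. rIL-17B replicate 1 was at 10.4% of the PBS mean (counting interval 3.92 to 6.28 CPM) and replicate 2 at 87.6%. Both treated libraries were below both PBS libraries, but the counting interval of replicate 2, 39.2 to 45.3 CPM, overlapped that of PBS replicate 2, 42.9 to 50.4 CPM. TGFB2 shares 1371 exon bases with the noncoding gene TGFB2-OT1 on the same strand. TGFB2-OT1 is not among the gene names of the series, and reads in the shared bases cannot be assigned with certainty.

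TGFB1 encodes TGF-β1, the ligand most studied in cancer (chromosome 19, 41301587 to 41353911, minus strand). It was at 117 and 123 CPM with PBS, 73.1 CPM in rIL-17B replicate 1 and 122 CPM in rIL-17B replicate 2. Replicate 2 lay between the PBS libraries, so the groups overlapped. TGFB1 shares 215 exon bases with HNRNPUL1 on the other strand, and since the use of strand in counting is not given in the sources used here, reads there cannot be assigned with certainty. TGFB3, the gene of TGF-β3 (chromosome 14, 75958099 to 75982991, minus strand), was low throughout, at 12.3 and 16.8 CPM with PBS against 15.1 and 12.8 CPM with rIL-17B. Its treated libraries lay within the range of the PBS libraries, and it shares 163 exon bases with the antisense gene TGFB3-AS1.

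The make-up of the TGF-β ligand counts differed between the libraries, independently of any scaling. TGFB2 made up 27.8% (95% exact Clopper-Pearson interval 26.2 to 29.5) and 25.0% (23.3 to 26.8) of the TGFB1, TGFB2 and TGFB3 counts with PBS. Its share was 5.36% (4.22 to 6.69) in rIL-17B replicate 1 and 23.8% (22.3 to 25.3) in replicate 2. The TGFB1 share was 65.4% and 66.0% with PBS and 78.4% and 69.0% with rIL-17B. The TGFB3 share was 6.85% and 9.01% with PBS, 16.2% in rIL-17B replicate 1 and 7.21% in replicate 2. The totals behind these shares were 2846, 2398, 1363 and 3108 counts, and the shares are of counts, not of molecules, because the genes differ in length.

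Among the receptors, the type II and the type I receptor genes differed in rIL-17B replicate 1. TGFBR2, which encodes the receptor that binds the ligand first (chromosome 3, 30606502 to 30694142, plus strand), was at 204 and 205 CPM with PBS, 73.7 CPM in rIL-17B replicate 1 and 191 CPM in rIL-17B replicate 2. Replicate 1 was at 36.0% of the PBS mean and replicate 2 at 93.2%. TGFBR1, the gene of the signaling type I receptor (chromosome 9, 99104038 to 99154192, plus strand), had 101, 98.9, 94.4 and 98.5 CPM in the same order, so that its treated libraries were 94.4% and 98.5% of the PBS mean. The ratio of TGFBR1 to TGFBR2 counts within a library was 0.494 and 0.482 with PBS, 1.28 in rIL-17B replicate 1 and 0.516 in replicate 2. TGFBR3 encodes betaglycan, a coreceptor that presents TGF-β2 in particular (chromosome 1, 91680343 to 91906335, minus strand), and was the only 1 of the 9 genes above both PBS libraries in both treated libraries. It had 25.1 and 23.7 CPM with PBS against 34.9 and 28.2 CPM in rIL-17B replicates 1 and 2, and the counting interval of replicate 2, 25.8 to 30.8 CPM, overlapped that of PBS replicate 1, 22.7 to 27.7 CPM.

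The target genes TGFBI and SMAD7 lay nearer to their PBS levels in rIL-17B replicate 1 than INHBA, TGFB2 and TGFBR2 did. TGFBI (chromosome 5, 136028895 to 136063818, plus strand) was at 969 and 936 CPM with PBS, 704 CPM in rIL-17B replicate 1 and 907 CPM in rIL-17B replicate 2. SMAD7 (chromosome 18, 48919853 to 48952052, minus strand) was at 32.0 and 31.4 CPM with PBS, 22.4 CPM in rIL-17B replicate 1 and 31.3 CPM in replicate 2. In replicate 1 they stood at 74.0% and 70.8% of the PBS mean, and in replicate 2 at 95.2% and 98.8%. TGFBI and SMAD7 do not stand for the other target genes, a list of 24 described below. Of these 24, 17 were at least 2-fold below both PBS libraries in replicate 1, against 18.3% of all tested genes.

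The comparison of rIL-17B with PBS asks what the cytokine changes in these cells. None of the 9 genes passed at an adjusted p of 0.05 when edgeR's quasi-likelihood test was run, and 0 of 16361 genes (0%) did. Unadjusted, 226 of the genes and 0 of the 9 had a p under 0.05, and DESeq2 called 0 genes, with 457 and 0 of the 9 under 0.05 unadjusted. The log2 fold changes were -1.28 for INHBA (SE 2.43, adjusted p = 0.786 from edgeR), -1.05 for TGFB2 (SE 1.09, 0.684), -0.67 for TGFBR2 (SE 0.56, 0.662) and -0.35 for TGFB1 (SE 0.33, 0.674). They were -0.30 for TGFBI (SE 0.22, 0.661), -0.30 for SMAD7 (SE 0.25, 0.662), -0.13 for TGFB3 (SE 0.23, 0.77), -0.12 for TGFBR1 (SE 0.12, 0.675) and 0.29 for TGFBR3 (SE 0.13, 0.661). The fitted value of INHBA averages a library at 0 with 1 near the PBS level, and its error spans both directions. Given these errors, the test does not show that the genes stayed equal. The group SD of INHBA was 98.0 CPM with rIL-17B and 3.19 CPM with PBS (n = 2 each).

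Without a test, 6 of the 9 genes (TGFB2, INHBA, TGFBR1, TGFBR2, TGFBI and SMAD7) were lower in both treated libraries than in both PBS libraries after TMM scaling, against 30.4% of all tested genes, and TGFBR3 was higher in both, against 28.5%. For TGFBR1 and SMAD7 the difference in rIL-17B replicate 2 was within counting error. Their counting intervals there, 93.9 to 103 and 28.8 to 34.1 CPM, held the levels of both PBS libraries. The interval of TGFBI there, 893 to 921 CPM, held neither PBS level but overlapped the interval of PBS replicate 2, 919 to 953 CPM. In rIL-17B replicate 1, INHBA, TGFB2 and TGFBR2 were at least 2-fold below both PBS libraries on the scale of log2(CPM + 0.5), which is 3 of 9 against 18.3% of tested genes, and 0 of 9 were at least 2-fold above, against 0.495%. In rIL-17B replicate 2, 0 of the 9 were 2-fold below (0.134% of tested genes) and 0 were 2-fold above (0.0244%). Over the 9 genes, the median log2 difference to the mean of the PBS libraries was -0.62 for replicate 1 (-0.64 without the added 0.5 CPM and with INHBA at 3 counts) and -0.08 for replicate 2, beside -0.04 and -0.0017 over all tested genes.

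Each treated library was also set against the PBS pair by itself, which assumes that a lone library varies as the PBS libraries do and therefore compares libraries rather than conditions. For rIL-17B replicate 2, 0 of the 9 genes passed an adjusted p of 0.05 in edgeR, against 2.95% of 17103 genes. INHBA came nearest, with a log2 fold change of -0.28 (SE 0.09, adjusted p = 0.0538 from edgeR), and was the only 1 of the 9 with an unadjusted p under 0.05. TGFB2 had -0.20 (SE 0.11, adjusted p = 0.442 from edgeR) and TGFBR3 0.20 (SE 0.13, adjusted p = 0.543 from edgeR), while TGFB1 and SMAD7 had 0.024 and -0.022. For rIL-17B replicate 1, 8 of the 9 passed, TGFB3 being the exception, against 55.1% of 17223 genes, with log2 fold changes of -3.40 for TGFB2, -1.61 for TGFBR2, -0.85 for TGFB1, -0.64 for SMAD7, -0.57 for TGFBI, -0.22 for TGFBR1 and 0.37 for TGFBR3. INHBA, at 0, has no fitted value that can be read as a fold. Since most genes tested passed in this library, the count is read beside that background.

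**Figure D2:**
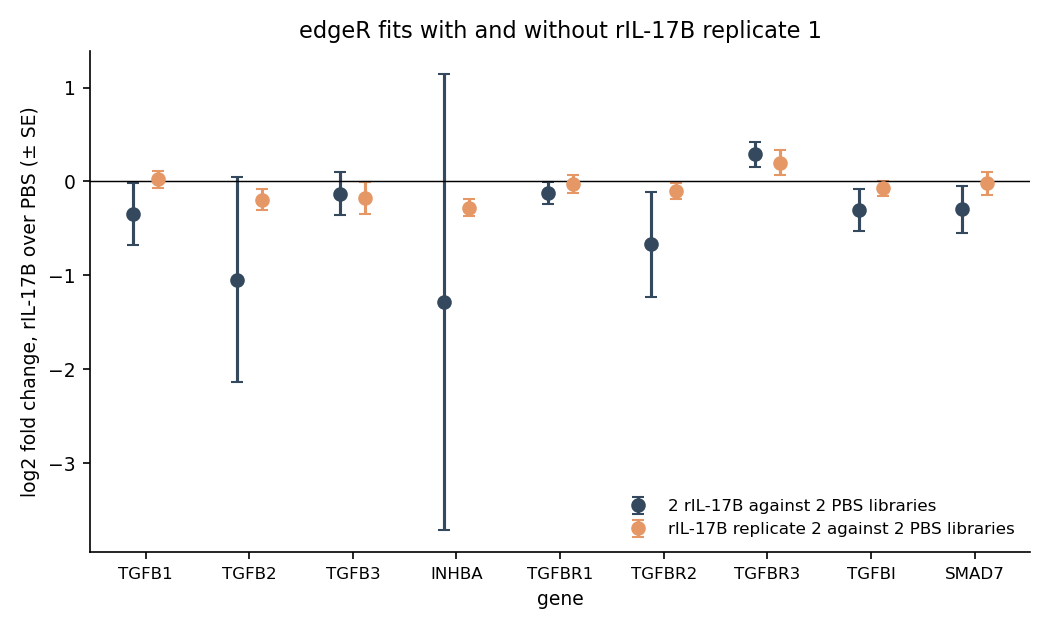
Log2 fold change of each gene, rIL-17B over PBS, from edgeR with all 4 libraries and with rIL-17B replicate 1 left out, and bars of 1 standard error. With all 4 libraries the error of INHBA is 2.43, and without rIL-17B replicate 1 the values lie between -0.28 and 0.20.

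The other genes of the pathway were described from lists of 78 genes, of which 76 had counts and 66 were expressed highly enough to be tested. In edgeR 0 of the 66 passed an adjusted p of 0.05, 54 had a fold change below 0 and 12 above, and the median log2 fold change was -0.48, beside -0.03 over all tested genes. Against the mean of both PBS libraries, the 66 had a median of -0.94 in rIL-17B replicate 1 (-0.97 without the added 0.5 CPM and with genes at 0 set to 3 counts) and -0.09 in the other treated library. In replicate 1, 31 of the 66 were at least 2-fold below both PBS libraries, against 18.3% of all tested genes, and 0 were 2-fold above, against 0.495%. In replicate 2 both counts were 0, against 0.134% below and 0.0244% above.

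Latency and activation genes keep TGF-β in store or free it. LTBP2, of the latent TGF-β binding protein family, had 790 and 819 CPM with PBS, 5.75 CPM in rIL-17B replicate 1 and 644 CPM in rIL-17B replicate 2. FBN1 (fibrillin 1, to whose microfibrils latent complexes attach) had 1196, 1151, 316 and 1052 CPM in the same order, and ITGAV, the integrin αV chain that takes part in activation, had 441, 418, 241 and 389 CPM. Of the 11 tested genes in this list, 7 were at least 2-fold below both PBS libraries in replicate 1, against 18.3% of all tested genes. LRRC32, which encodes the cell surface anchor GARP and was chosen after its values were seen, was at 0 in that library, with 13.0 and 15.6 CPM with PBS and 10.7 CPM in replicate 2.

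Ligands of the activin and nodal branch other than INHBA were mostly near the floor. GDF11, a SMAD2 and SMAD3 activating ligand, was the highest, at 45.5 and 44.6 CPM with PBS against 54.1 and 42.8 CPM with rIL-17B. INHBE had 8.74, 8.07, 0.82 and 6.55 CPM, INHA had no more than 1.16 CPM, and 7 of the 10 in the list were too low to be tested. Of the antagonists, DCN (decorin, a proteoglycan that binds TGF-β) had 1115 and 1007 CPM with PBS, 2.39 CPM in rIL-17B replicate 1 and 926 CPM in replicate 2. FSTL3, a follistatin-like protein that binds activin, had 116, 110, 109 and 116 CPM, and BAMBI, a decoy receptor, had 9.62, 9.62, 5.41 and 9.11 CPM. Among the other receptors, ENG (endoglin, a coreceptor related to betaglycan) had 158, 154, 61.2 and 145 CPM, while the activin receptor genes ACVR1B had 28.99 to 31.3 CPM over the 4 libraries. ACVR2A had 11.8 and 15.1 CPM with PBS and 4.99 CPM in rIL-17B replicate 1, and its level in replicate 2 lay between these groups.

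The signal transducers stood closer together. SMAD2 had 110 and 111 CPM with PBS against 134 and 123 CPM with rIL-17B, SMAD3 had 117, 109, 89.4 and 120 CPM, and SMAD4 had 46.8, 48.8, 42.1 and 45.9 CPM. None of the 3 differed 2-fold from PBS in either treated library. Of all tested genes, 18.3% were at least 2-fold below both PBS libraries in replicate 1 and 0.134% in replicate 2. The shares at least 2-fold above were 0.495% and 0.0244%. Of 16 intracellular regulators 1, PPP1R15A (named after its values were seen), was 2-fold below PBS in replicate 1, against the same 18.3%. It had 142, 137, 20.5 and 130 CPM. The highest of the list were FKBP1A, which holds the type I receptor inactive, with 143, 147, 142 and 137 CPM, the SMAD repressor SKIL with 129, 124, 123 and 129 CPM, and SKI with 119, 120, 87.0 and 117 CPM.

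The list of 24 target genes had the widest range. FN1 (fibronectin) had 33131 and 32458 CPM with PBS, 149 CPM in rIL-17B replicate 1 and 27450 CPM in replicate 2, and COL1A2 had 5516, 5248, 1.09 and 4699 CPM. COL1A1 had 7263, 7511, 205 and 6192 CPM. Of the mesenchymal markers, COL3A1 had 4145, 3871, 252 and 3494 CPM and SPARC 3780, 3801, 195 and 3185 CPM, low in the same library. TWIST1, another of these markers, was not low there (11.7 CPM, beside 13.3 and 9.78 CPM with PBS). The part of such markers in the target genes' levels was not tested. Of the 24 genes, 17 were at least 2-fold below both PBS libraries in replicate 1, against 18.3% of all tested genes, and 0 in replicate 2, against 0.134%. The median difference from the PBS mean was -2.44 and -0.19 on the log2 scale (-3.06 in replicate 1 without the added 0.5 CPM). With rIL-17B replicate 1 left out, 6 of 68 pathway genes passed an adjusted p of 0.05 in edgeR, against 2.95% of all genes, and all 6 were lower. Among them were LTBP2, CCN2 (listed as CTGF), IGFBP3, COL1A1 and FN1, named after their values were seen, with log2 fold changes of -0.33, -0.28, -0.29, -0.26 and -0.26. KLF10, a TGF-β early response gene chosen after its values were seen, had 48.9, 52.5, 52.9 and 51.7 CPM. After TMM scaling, 18 of the 24 target genes were lower in both treated libraries than in both PBS libraries, against 30.4% of all tested genes. Another 2 were higher in both, against 28.5%.

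**Figure D3:**
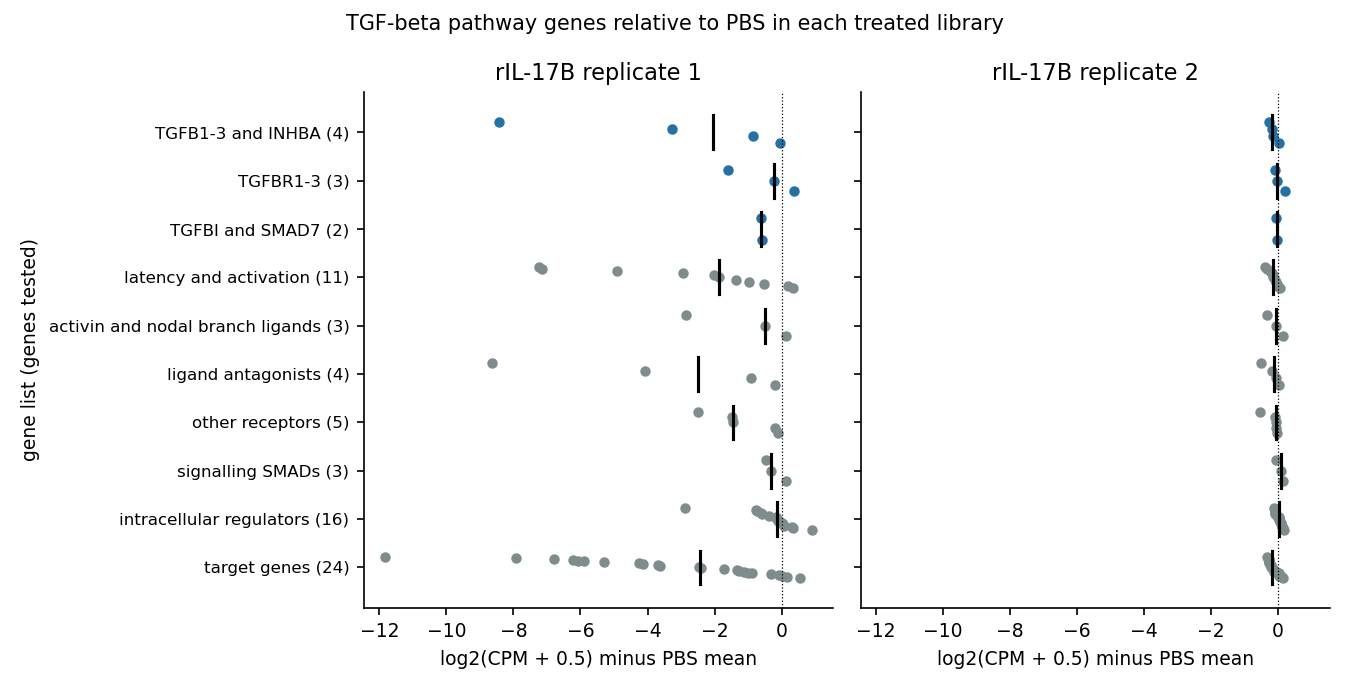
Difference of each tested gene from the PBS mean, as log2(CPM + 0.5) after TMM scaling, in rIL-17B replicate 1 (left) and replicate 2 (right), by list, with the number of genes tested in brackets and the list median as a black line. The 24 target genes have a median of -2.44 in replicate 1 and -0.19 in replicate 2, while the 16 intracellular regulators have medians of -0.14 and 0.03.

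The pattern of each gene over the 4 libraries was compared with those of 74 others, the tested list genes and the rest of the 9, by the root mean square difference of centered log2(CPM + 0.5), as a description over 4 libraries. The pattern of INHBA was nearest to that of DCN (0.11) and FN1 (0.22). Since INHBA had 0 counts in rIL-17B replicate 1, its value there comes from the added 0.5 CPM, and both differences depend on it. TGFB2 was nearest to FBN2 (0.13) and CCN2 (0.14), and TGFBR2 to ENG (0.056) and LTBP3 (0.10). TGFB2 and TGFBR2 varied most in rIL-17B replicate 1, so a small difference from them mainly means a similar fall in that library. TGFBI was nearest to PPM1A (0.023) and SKI (0.032), SMAD7 to SKI (0.023), and TGFBI and SMAD7 differed from each other by 0.038. TGFBR1 was nearest to SKIL (0.027), TGFBR3 to PMEPA1 (0.059), TGFB1 to BAMBI (0.049) and TGFB3 to ACVR2B (0.14).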

How the data were processed

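The authors deposited counts, whole numbers of reads per gene name, for each of the 4 libraries. Per the labels, cDNA was primed with oligo-dT and amplified (Smart-seq2), which favors polyadenylated RNA. The submitters' processing notes name Bowtie2 2.2.3, HISAT2 2.1.0, TopHat2 and HTSeq 0.6.0 and the build hg38, but their roles and the use of strand are not given in the sources used here. Names turned into numbers (22 to 25 per library) and repeated entries were left out, and unlisted genes were given 0. rIL-17B was compared with PBS by edgeR 4.0.16 (R 4.3.3; TMM, filterByExpr, quasi-likelihood F test, Benjamini-Hochberg adjustment over 16361 genes, threshold 0.05, two-sided), tested on simulated data. In the simulated data no library stood apart, so they do not show how often real changes would be called here. Each SE is the absolute log2 fold change over the root of F. With 2 libraries against 2, exact permutation could give no two-sided p under 0.333. Alternatives were DESeq2 1.42.0, other scalings and filters, a replicate block and leaving out each library. CPM per kb used the exon union of GENCODE 29. Genes named were the 9, the 3 highest of each list by mean CPM, list genes past the threshold, up to 3 genes most like each of the 9 and, where marked, genes chosen after their values were seen. Cell type markers named beyond the 3 highest of their list were also chosen after their values were seen. The 9 genes and the lists were chosen with earlier results of these data known. Tables and plots were made with Python 3.11.15. The values of 1 gene of the target list are not reported here.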

Additional observations from a re-analysis of the deposited data

How the results depend on the processing

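None of the 9 genes passed an adjusted p of 0.05 with upper-quartile normalization, library totals only, no filter, the replicate block or DESeq2, nor did 8 of them with at least 10 counts in every library, a filter that INHBA could not pass. How many of the 9 did not overlap between groups or were 2-fold from PBS was the same under library totals and without the added 0.5 CPM. Results rested on which rIL-17B library was present: leaving out 1 library in turn gave 0 to 9489 genes called over all genes, 0 to 8 of the 9, and 0 to 50 of the pathway genes, the upper ends without rIL-17B replicate 2, and 504 genes and 6 pathway genes without rIL-17B replicate 1. TGFB1 changed direction without rIL-17B replicate 1 and ranged from -0.85 to 0.024 (log2), and TGFB3 without PBS replicate 2, from -0.33 to 0.10. The causes were not tested. A replicate block gave 0 genes called, with 173 under 0.05 unadjusted against 226 without the block, 879 with no filter, 462 with at least 10 counts and 457 with DESeq2, and under the block the fold changes of INHBA and TGFB2 were -4.38 and -1.77. Same-numbered libraries correlated at 0.082 in their deviations from the group means over 16361 genes, and the labels do not say that a number marks a shared culture. At 3 counts, levels under 0.171 to 0.233 CPM could not be shown.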
